A study of Mus musculus with 4 samples.

Results

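The colony-stimulating factor receptors and ligands examined here were 8 mouse genes: the receptor genes Csf1r, Csf2ra, Csf2rb, Csf2rb2, Csf3r and Flt3, and the ligand genes Csf1 and Il34. Peaks of chromatin accessibility from 4 libraries were merged where they shared at least 1 bp. A merged region was given to a gene when that gene's transcription start site (TSS) was the nearest to the midpoint of the region, or when the region overlapped the body of the gene, on RefSeq transcripts of the mm10 build. This gave 46 of the 70744 regions of the series, at 7 of the 8 genes. Of the 46, 11 came by the gene body alone, with another gene's TSS nearest. By nearest TSS alone, a narrower rule, 72.9% of all genes had a region. Il34 had none.

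The receptors of this group read the supply of myeloid growth factors. Csf1r is a receptor tyrosine kinase, known on flow cytometry as CD115, that binds the products of Csf1 and Il34 and on which tissue macrophages depend for survival. Csf2ra encodes the ligand-binding chain of the GM-CSF receptor, Csf2rb the signalling chain that the GM-CSF, IL-3 and IL-5 receptors share, and Csf2rb2 a mouse paralogue of it that serves IL-3 alone. Csf3r is the G-CSF receptor of the neutrophil lineage, and Flt3 a kinase of the same class as Csf1r that is active in progenitors and dendritic cells.

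ATAC-seq was done on large peritoneal macrophages (LPMs) sorted from C57BL/6 mice at 9 weeks of age. Control libraries came from Rxrab fl/fl mice, which carry floxed alleles of Rxra and Rxrb, the genes of 2 retinoid X receptors (RXRs). RXR-deficient libraries came from LysMCre+ Rxrab fl/fl mice, in which Cre under the control of the lysozyme M locus deletes both floxed genes in myeloid cells. Each genotype had 2 libraries of 40000 cells, numbered 1 and 3 for Rxrab fl/fl and 1 and 2 for LysMCre+ Rxrab fl/fl, and values below are given in that order. In the study the LPM gate required CD115 on the surface, so the cells were gated on the product of Csf1r. LysM Cre also acts in monocytes and neutrophils, and the study left out libraries that did not group with their genotype, so the spread within a genotype may be understated. No source used here says whether the libraries came from separate mice, so p-values measure only the spread between these libraries.

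The libraries differed in what they could show. Control replicate 3 held the fewest peaks (16097, against 38048 in control replicate 1 and 65421 and 55581 in the RXR-deficient libraries). Of all regions, 52.0% and 21.9% were called in the control libraries and 90.7% and 77.2% in the RXR-deficient ones. All 9 LPM marker genes on the list used, Gata6 and Timd4 among them, had a called region in every library. Markers of small peritoneal macrophages and monocyte-derived cells had 29 and 9 of their 78 regions called in the control libraries and 66 and 57 in the RXR-deficient ones. For the LPM markers the same counts were 52, 21, 55 and 59 of 69. Called in both RXR-deficient libraries and neither control were 26.9% of the small macrophage marker regions and 8.70% of the LPM marker regions. Of all regions 22.8% were. Such regions cannot enter a comparison of regions called in all 4 libraries. On the summit pileup of regions called in all 4 libraries, the tag height at the summit, the LPM markers had a median log2 fold change (RXR-deficient against control) of -0.63 over 21 regions and the small macrophage markers -0.03 over 9, where the median of all regions was -0.10. Of the 21, 2 passed as lower in RXR-deficient LPMs (limma), both at Naip1 (-1.25 and -1.18), and 13 had an unadjusted p under 0.05, where 33.2% of all regions did. Since 40000 cells were read together, a site open in a few cells and a site weakly open in all cells cannot be told apart. The targeted genes gave no check of the deletion, as Rxra had 14, 6, 25 and 22 of 26 regions called and peaks do not show a loss of single exons.

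The sequences below are a choice of those around summits with larger fold enrichments in both RXR-deficient libraries than in either control, or called only there, read from the mm10 genome in the direction of transcription of each gene, together with the RefSeq promoter of Csf2ra (GRCm38.p6). Each window reaches 100 bp to either side of the strongest summit. Positions in kb are from the TSS to the midpoint of the region, and negative values are upstream. Capitals mark letters that match a binding pattern on either strand: GAGGAAG for PU.1, TTGCNNAA for C/EBP, TGANTCA for AP-1, TGTGGT for RUNX and TTCNNNGAA for STAT factors, where N is any base and matches may overlap.
Csf2rb -4.8 kb (chr15:78320910-78321110, plus strand): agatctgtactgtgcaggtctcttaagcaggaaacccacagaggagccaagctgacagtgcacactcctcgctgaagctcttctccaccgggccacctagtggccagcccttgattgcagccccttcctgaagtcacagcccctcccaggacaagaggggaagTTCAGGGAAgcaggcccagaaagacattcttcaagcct
Csf2rb 8.7 kb (chr15:78334532-78334732, plus strand): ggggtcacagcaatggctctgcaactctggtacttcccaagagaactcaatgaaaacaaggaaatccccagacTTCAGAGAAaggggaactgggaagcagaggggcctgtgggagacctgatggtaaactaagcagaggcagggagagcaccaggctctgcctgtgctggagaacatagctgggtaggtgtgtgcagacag
Csf2rb2 promoter-TSS (chr15:78305594-78305794, minus strand): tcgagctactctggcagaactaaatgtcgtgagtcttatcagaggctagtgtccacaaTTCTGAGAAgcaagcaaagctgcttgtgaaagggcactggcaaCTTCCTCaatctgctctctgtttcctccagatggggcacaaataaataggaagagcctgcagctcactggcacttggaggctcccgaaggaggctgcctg
Csf2ra -16.4 kb (chr19:61244800-61245000, minus strand): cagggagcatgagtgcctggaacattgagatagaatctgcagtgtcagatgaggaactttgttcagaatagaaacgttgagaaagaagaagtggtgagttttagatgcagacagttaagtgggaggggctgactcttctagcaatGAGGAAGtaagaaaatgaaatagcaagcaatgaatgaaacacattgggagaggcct
Csf2ra promoter, RefSeq (chr19:61228369-61228668, minus strand): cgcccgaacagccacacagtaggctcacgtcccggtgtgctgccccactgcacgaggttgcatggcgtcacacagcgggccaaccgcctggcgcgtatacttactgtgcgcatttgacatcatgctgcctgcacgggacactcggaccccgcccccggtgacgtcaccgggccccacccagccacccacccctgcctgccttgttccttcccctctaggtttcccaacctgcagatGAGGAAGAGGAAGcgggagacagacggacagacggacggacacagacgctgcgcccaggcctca
Csf3r -22.6 kb (chr4:126001898-126002098, plus strand): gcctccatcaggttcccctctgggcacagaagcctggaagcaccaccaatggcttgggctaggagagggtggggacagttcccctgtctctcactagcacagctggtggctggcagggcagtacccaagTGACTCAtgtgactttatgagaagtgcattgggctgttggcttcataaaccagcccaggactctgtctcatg
Flt3 37.3 kb (chr5:147363132-147363332, minus strand): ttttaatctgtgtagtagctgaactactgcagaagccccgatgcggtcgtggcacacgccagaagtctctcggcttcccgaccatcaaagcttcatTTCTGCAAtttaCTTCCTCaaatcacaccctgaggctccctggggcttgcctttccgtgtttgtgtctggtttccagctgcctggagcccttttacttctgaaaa
Csf1 -21.0 kb (chr3:107781388-107781588, minus strand): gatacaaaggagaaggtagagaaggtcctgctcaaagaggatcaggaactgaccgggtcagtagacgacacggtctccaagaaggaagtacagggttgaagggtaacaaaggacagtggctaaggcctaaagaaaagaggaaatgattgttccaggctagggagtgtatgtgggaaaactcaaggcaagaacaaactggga

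The 3 windows of the common signalling chain and its paralogue each held a STAT pattern, as TTCAGGGAA, TTCAGAGAA and TTCTGAGAA. The Csf2rb2 window also held CTTCCTC, which is the PU.1 pattern on the opposite strand. The Csf2ra promoter held 2 overlapping copies of the PU.1 pattern in a single run, GAGGAAGAGGAAG, and the Flt3 window a C/EBP and a PU.1 match a few bases apart. The Csf1 window at -21.0 kb held no match to any pattern searched. Of 32851 RefSeq promoters of the same length as that of Csf2ra, 13.6% held the PU.1 pattern and 8.3% the STAT pattern. In the shorter windows around summits, 21.8% of all regions held the PU.1 pattern and 5.58% the STAT pattern. No binding was measured, and a match is only a match of letters.

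Regions were spread unevenly over the genes. Csf1r led with 12, and the control libraries held 7 and 4 of them and the RXR-deficient libraries 10 and 11. Csf2ra had 8 regions (5, 4, 6 and 7 called), Csf1 and Csf3r had 7 each (5, 2, 7 and 6 for Csf1 and 3, 1, 5 and 5 for Csf3r), and Flt3 had 6 (2, 0, 5 and 4). Csf2rb had 4 (3, 2, 4 and 4) and Csf2rb2 had 2 (1, 0, 2 and 1). Csf2rb2 and Flt3 had no region called in control replicate 3.

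**Figure D1:**
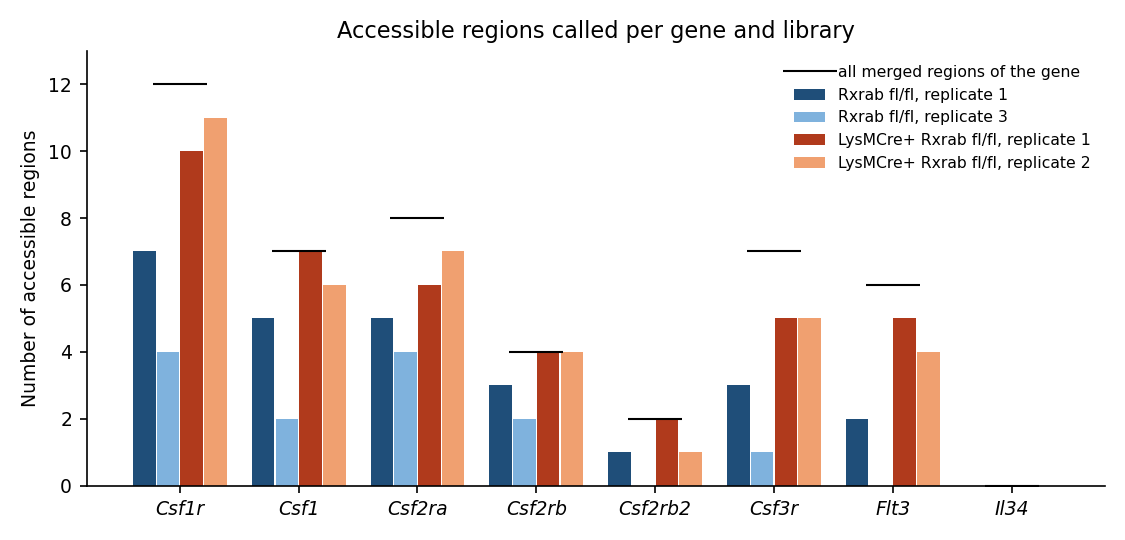
Number of accessible regions (vertical axis) at each of the 8 genes (horizontal axis), as bars for the 4 libraries, with a black line at the number of merged regions of the gene. Control replicate 3 is lowest at each of the 7 genes with a region, from 4 of 12 at Csf1r to 0 of 6 at Flt3.

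Over the 46 regions, 26 and 13 were called in the control libraries (56.5% and 28.3%) and 39 and 38 in the RXR-deficient libraries (84.8% and 82.6%). The Wilson 95% intervals of these shares, 42.2% to 69.8%, 17.3% to 42.5%, 71.8% to 92.4% and 69.3% to 90.9%, cover counting error only and hold the share of all regions called in the same library in each case. In all 4 libraries 13 regions were called (28.3%, where 21.5% of all regions were), and 11 were missed in control replicate 3 alone. With or without a call in control replicate 1, 18 of the 46 were called in both RXR-deficient libraries and missed in control replicate 3. Of all 70744 regions, 34197 were. A further 13 were called in 1 library only, where 51742 of all 70744 regions were called in at least 2. Promoter-TSS regions, whose midpoint lay no more than 1 kb upstream or 200 bp downstream of a start site, made up 6 of the 46 (13.0%, against 18.1% of all regions).

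Csf1r, the gene of the CSF1 receptor, was open along its body and upstream of it, with 4 regions called in all 4 libraries. The strongest of these lay at 3.1 kb, in intron 2, the intron that is known to carry the Fms intronic regulatory element (FIRE) of the gene. Its fold enrichment, the summit pileup of tags over the local background as MACS2 gives it, was 16.2 and 11.0 in the control libraries and 15.7 and 13.0 in the RXR-deficient ones. These values ranked above 80.2% to 84.9% of the peaks of their library, and the summits lay within 56 bp of each other. Divided by the median of the library over regions called in all 4, they were 1.11 and 1.46 in controls and 1.04 and 1.08 in RXR-deficient LPMs. Both control values were above the others, and the log2 fold change of -0.27 (SE 0.22, 95% interval -0.74 to 0.20) did not pass the test (limma, adjusted p = 0.486) and turned to 0.10 when libraries were not centred. On the summit pileup, 273 and 52 tags against 254 and 171, the genotypes overlapped once scaled to the library and the log2 fold change was -0.06.

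A neighbouring region in the same intron, at 2.2 kb, had a low fold enrichment in every library. It was 4.32 and 5.00 in controls and 4.34 and 3.94 in RXR-deficient LPMs. The summit pileup there was 72 and 23 tags in controls and 69 and 51 in RXR-deficient LPMs. The local background was 15.9 and 3.80 tags in controls and 15.1 and 12.2 in RXR-deficient LPMs. The genotypes overlapped there, although the log2 fold change of the fold enrichment was -1.12 with control replicate 3 as the only control library. Towards the end of the gene, in intron 15 at 22.1 kb, fold enrichment was 14.0 and 7.69 in controls and 8.47 and 7.37 in RXR-deficient LPMs. Relative to the library median this was 0.96 and 1.02 against 0.56 and 0.61, so both control libraries were above both others. The log2 fold change of -0.76 (SE 0.21) had an adjusted p of 0.0822 in limma and did not pass. The local background at this site was 7.64 and 2.12 tags in controls and 9.98 and 10.8 in RXR-deficient LPMs, and on the pileup, which is not divided by it, the log2 fold change was -0.11 (95% interval -0.67 to 0.46).

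Upstream, the region at -6.5 kb gave 11.2 and 5.82 in controls and 13.8 and 10.0 in RXR-deficient LPMs. Both RXR-deficient libraries were above the controls relative to the library median, by a log2 fold change of 0.17 that did not pass (limma, adjusted p = 0.642). No Csf1r region fell within the promoter-TSS window. The closest, at 0.3 kb in exon 2, was called only in the RXR-deficient libraries at 3.11 and 2.89. On fold enrichment, only 0.85% and 0.83% of the peaks of these libraries were as weak or weaker. Its summit pileup was 50 and 37 tags on a local background of 15.4 and 12.1. At -6.5 kb the same libraries had 62 and 43 tags on a background of 3.58 and 3.38.

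The other Csf1r regions were weaker or less often called. A site in intron 11 at 15.2 kb had 9.62 in control replicate 1 and 17.1 and 9.01 in the RXR-deficient libraries, and was missed in control replicate 3. Regions at -14.8 and -9.9 kb were called in the same 3 libraries, with fold enrichments from 4.39 to 9.44. The 3 regions called once, at -22.2, 14.7 and 19.2 kb, had values from 2.56 to 4.87, and the first of them lay within the body of Pdgfrb, the neighbouring kinase gene.

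**Figure D2:**
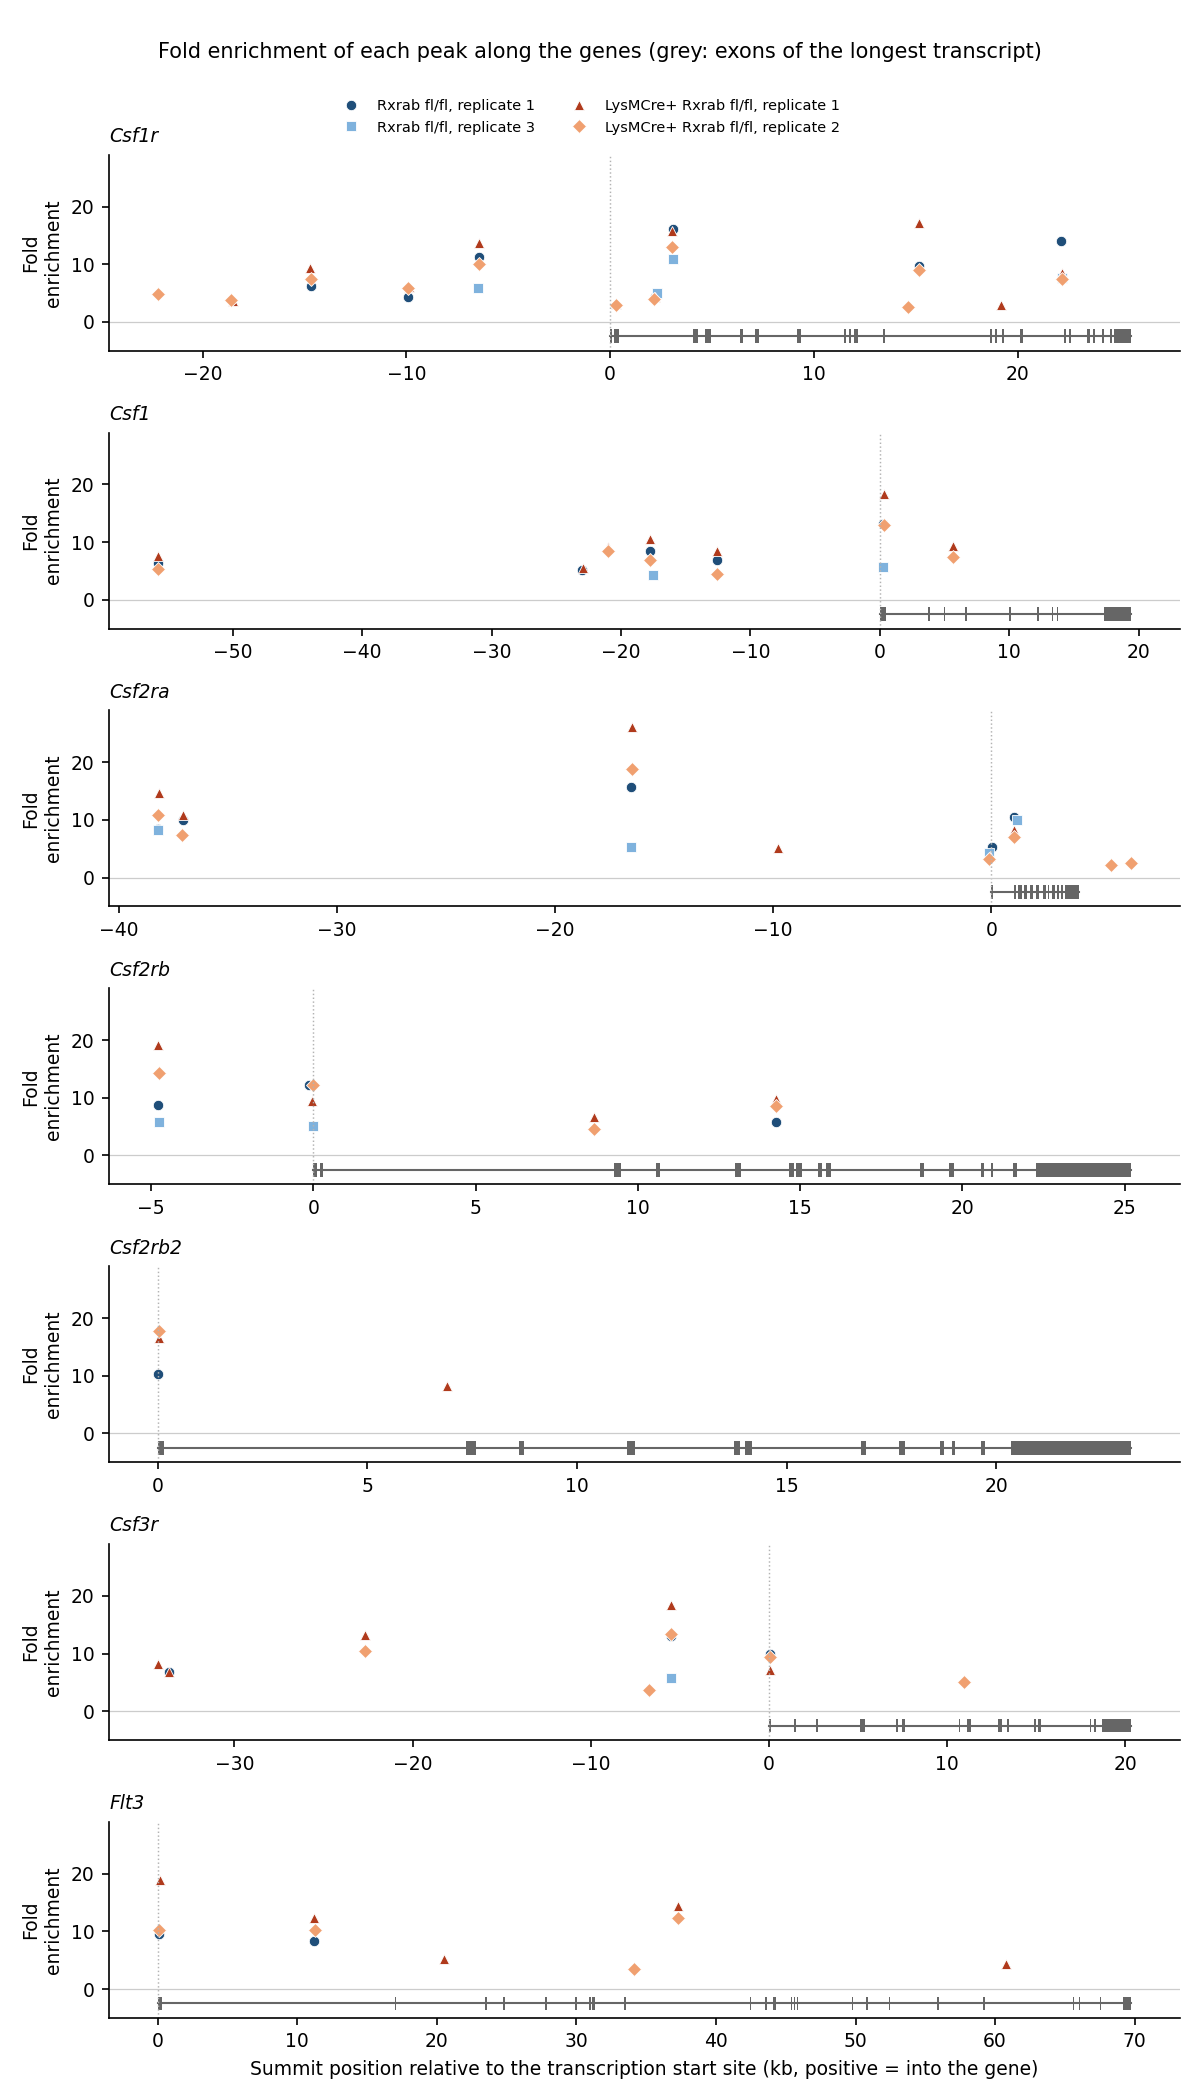
Fold enrichment of each peak (vertical axis, linear) against the position of its summit from the TSS in kb (horizontal axis, own scale per gene), with exons of the longest transcript as grey boxes and 1 marker shape and colour per library. The highest value is that of RXR-deficient replicate 1 at Csf2ra -16.4 kb, 26.2, and at Csf1r the highest single peak is that of the same library at 15.2 kb, 17.1.

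Csf2ra, the gene of the GM-CSF receptor alpha chain, also had 4 regions called in every library, and they did not move together. At -16.4 kb, fold enrichment was 15.6 and 5.34 in controls and 26.2 and 18.9 in RXR-deficient LPMs, where it outranked 99.3% and 97.2% of all peaks. Both RXR-deficient libraries were above both controls relative to the library median (1.73 and 1.57 against 1.08 and 0.71). The log2 fold change was 0.91 (SE 0.24, 95% interval 0.40 to 1.43) with an adjusted p of 0.0776 in limma, outside the threshold of 0.05 and a log2 fold change past 1. With a mean-variance trend the adjusted p was 0.00703, and with regions called in at least 2 libraries 0.0306 (limma), at the same log2 fold change, which stayed inside 1. The second of these fits adds regions missing from some libraries. Over all its regions 2750 passed as higher in RXR-deficient LPMs and 137 as lower. On the summit pileup, 50 and 10 tags in controls and 112 and 65 in RXR-deficient LPMs, the log2 fold change was 1.07 (SE 0.22) and passed (limma, adjusted p = 0.0258). The pileup call was lost without RXR-deficient replicate 1 (0.98) or 2 (1.16, lost on the adjusted p). With control replicate 3 as the only control library, the log2 fold change of the fold enrichment was 1.21.

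The promoter-TSS region of Csf2ra and a region at 1.0 kb leaned the other way. The midpoint of the region at 1.0 kb lay in intron 1, and its summits, at 1.02 to 1.17 kb, lay in or near exon 2. At the promoter, fold enrichment was 5.25 and 4.35 in controls and 3.67 and 3.26 in RXR-deficient LPMs, a log2 fold change of -0.84 (SE 0.25) with an adjusted p of 0.0917 in limma. At 1.0 kb it was 10.4 and 10.0 in controls and 8.27 and 7.11 in RXR-deficient LPMs, a log2 fold change of -0.79 (SE 0.27) with an adjusted p of 0.126. Both control libraries were above both others at each site, on the fold enrichment and on the pileup, and neither site passed. With control replicate 3 as the only control library, the log2 fold changes were -1.18 at the promoter and -1.23 at 1.0 kb. In that library the promoter peak ranked above only 3.54% of its peaks. These summits stood on the highest local backgrounds among the regions called in all 4 libraries, 26.8 and 5.66 tags in controls and 30.3 and 22.0 in RXR-deficient LPMs at the promoter. On the pileup the log2 fold changes were -0.34 and -0.16. The region at -38.3 kb had 8.43 and 8.25 in controls and 14.7 and 10.8 in RXR-deficient LPMs, and the genotypes overlapped relative to the library median.

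Csf2rb, the common signalling chain, gave the largest difference on the pileup. At -4.8 kb, fold enrichment was 8.73 and 5.81 in controls and 19.1 and 14.4 in RXR-deficient LPMs. Relative to the library median the controls stood at 0.60 and 0.77 and the RXR-deficient libraries at 1.26 and 1.20, with no overlap. The log2 fold change was 0.85 (SE 0.22, 95% interval 0.38 to 1.32), and limma gave an adjusted p of 0.0751. It was 0.0154 with a mean-variance trend and 0.0308 with regions called in at least 2 libraries (limma), with the size still inside 1. The latter fit adds regions missing from some libraries and leaves the values of this region as they were. On the pileup, 43 and 14 tags against 127 and 95, the log2 fold change was 1.30 (SE 0.27) and passed (limma, adjusted p = 0.0263). That call was lost without RXR-deficient replicate 1 (1.39, adjusted p = 0.0502 in limma) or 2 (1.20, adjusted p = 0.101). Without control replicate 1 it was lost on size alone (0.97). With control replicate 1 as the only control library, the log2 fold change of the fold enrichment was 1.03.

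The promoter of Csf2rb did not follow. Its promoter-TSS region had 12.2 and 5.15 in controls and 9.38 and 12.2 in RXR-deficient LPMs, and the genotypes overlapped, with a log2 fold change of 0.07 (95% interval -0.48 to 0.62). A site in intron 2 at 8.7 kb was called only in RXR-deficient LPMs, at 6.64 and 4.68. Another in intron 5, at 14.3 kb, had 5.77 in control replicate 1 and 9.75 and 8.55 in RXR-deficient LPMs.

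Csf2rb2 starts 20.1 kb from the TSS of Csf2rb, on the other strand. Its promoter-TSS region was not called in control replicate 3, and had 10.3 in control replicate 1 and 16.5 and 17.8 in the RXR-deficient libraries. The RXR-deficient values ranked above 86.9% and 95.9% of the peaks of their library and the control value above 61.9%. Missing from 1 library, it was left out of the fit over regions called in all 4. In the fit that also took regions called in at least 2 libraries, with both genotypes present, its log2 fold change was 0.84 (SE 0.30) and did not pass (limma, adjusted p = 0.0781). The second region of the gene, at 6.9 kb, was called once, at 8.17 in RXR-deficient replicate 1. The paralogues share sequence, and reads of low mapping quality had been removed. Of the words of 50 bases in each region, 3.42% at the Csf2rb promoter and 3.34% at the Csf2rb2 promoter also occurred at the other gene. The share was 13.3% at the Csf2rb site at 8.7 kb, 12.2% at the Csf2rb2 site at 6.9 kb and 0% at -4.8 kb, so values at 8.7 and 6.9 kb are the less certain.

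Csf3r, the G-CSF receptor gene, had 1 region in all 4 libraries, at -5.4 kb. Its fold enrichment was 13.0 and 5.71 in controls and 18.4 and 13.3 in RXR-deficient LPMs, with both RXR-deficient libraries higher relative to the library median. The log2 fold change of 0.49 (SE 0.21) did not pass (limma, adjusted p = 0.198). The promoter-TSS region had 9.95 in control replicate 1 and 7.10 and 9.43 in RXR-deficient LPMs, and was missed in control replicate 3. A region at -22.6 kb was called only in RXR-deficient LPMs, at 13.2 and 10.4, with summits 2 bp apart. The neutrophil marker list had 2, 0, 5 and 4 of its 5 regions called and summed fold enrichments of 21.7, 0, 60.0 and 45.8. Over all regions the shares called were 52.0%, 21.9%, 90.7% and 77.2%. Each of the 5 genes had 1 region, and none was called in control replicate 3. Those of S100a8 and S100a9 were called in control replicate 1 and both RXR-deficient libraries, those of Elane and Mpo in the RXR-deficient libraries alone, and that of Ly6g in RXR-deficient replicate 1. The LPM gate of the study, on CD115 and high F4/80, is one that should remove neutrophils, and their part in the Csf3r values was not tested.

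Flt3, the receptor of the FLT3 ligand, had no region called in control replicate 3, so none entered the fit over regions called in all 4 libraries. Each Flt3 region was taken for its overlap with the gene body, and the nearest TSS was that of Gm26597 or Urad. Its promoter-TSS region, which lies within the body of Gm26597, had 9.51 in control replicate 1 and 18.9 and 10.3 in RXR-deficient LPMs. A region at 11.3 kb in intron 1 had 8.25 and then 12.3 and 10.2 in the same 3 libraries. In the fit of regions called in at least 2 libraries, the log2 fold changes were 0.66 (SE 0.31) at the promoter and 0.55 (SE 0.28) at 11.3 kb, and neither passed (limma, adjusted p = 0.169 and 0.208). A region at 37.3 kb in intron 9 was called only in RXR-deficient LPMs, at 14.4 and 12.3. These values ranked above 81.0% and 82.0% of their peaks. It had the largest mean log2 fold enrichment at Flt3 over the libraries that called a region. That mean leaves out missing control calls, so it does not place this site above the promoter, at 18.9 and 10.3 in the same libraries. The other 3 regions were each called in 1 RXR-deficient library, at 3.53 to 5.16. Markers of dendritic cells, which use this receptor, had 9, 2, 18 and 17 of 21 regions called, with summed fold enrichments of 76.1, 16.6, 157 and 126. Of all regions, 52.0%, 21.9%, 90.7% and 77.2% were called in these libraries. Zbtb46 and Itgae were called in every library, and Xcr1, Clec9a and Cd209a in none of their regions in control replicate 3. The LPM gate, on CD115, high F4/80 and low MHC class II, is one that should remove most dendritic cells, and their part in the Flt3 values was not tested.

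Csf1, the gene of the ligand of CSF1R, was open at its promoter in every library. Fold enrichment there was 13.1 and 5.65 in controls and 18.3 and 12.9 in RXR-deficient LPMs. Both RXR-deficient libraries were above the controls relative to the library median, and the log2 fold change of 0.47 (SE 0.21) did not pass (limma, adjusted p = 0.22). On the pileup it was 0.78 (SE 0.24, adjusted p = 0.0604, limma), which did not pass either. The region at -17.7 kb had 8.42 and 4.27 in controls and 10.5 and 6.89 in RXR-deficient LPMs, and the genotypes overlapped. Regions in intron 3 at 5.6 kb (9.38 and 7.46) and at -21.0 kb (9.13 and 8.53) were called only in RXR-deficient LPMs. The remaining 3 regions of the gene, at -12.5, -23.01 and -55.7 kb, ranged from 4.55 to 8.51 and were called in control replicate 1 but not in control replicate 3.

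Il34, the gene of the other CSF1R ligand, had no called region in any of the 4 libraries over its 64.1 kb or nearest to its TSS. The next regions lay 19.96 kb beyond its 3' end, nearest to Mtss2 (4.90 in control replicate 1 and 7.05 in RXR-deficient replicate 1), and 40.5 kb upstream, nearest to Sf3b3 (8.43, and 10.2 and 4.51 in RXR-deficient LPMs, in 3 libraries). Peak lists hold only values above a threshold, so signal below it was not detectable here.

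**Figure D3:**
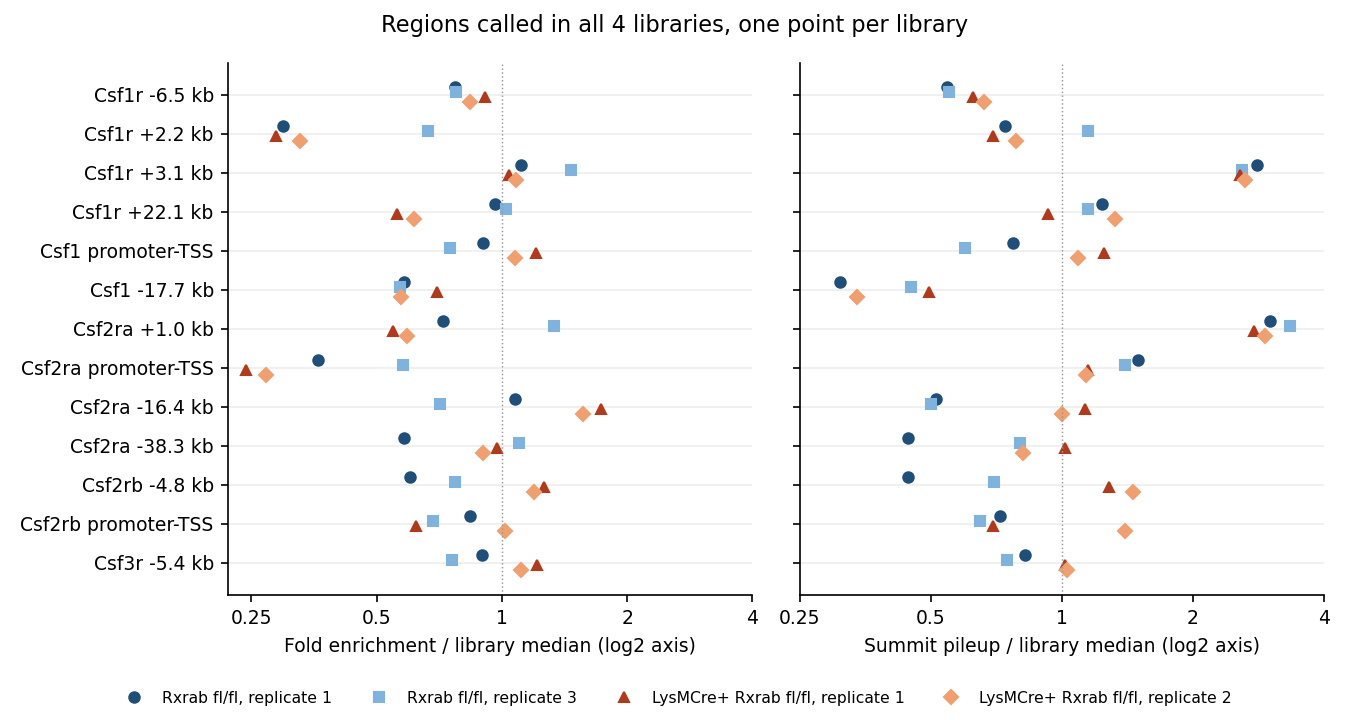
Values of the 13 regions called in all 4 libraries, 1 point per library, as fold enrichment (left) and summit pileup (right) divided by the median of the library, on log2 axes, with regions named by gene and kb from the TSS. At Csf2ra -16.4 kb and Csf2rb -4.8 kb the RXR-deficient points lie to the right of the control points in both panels.

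Across the 13 regions called in all 4 libraries, fold enrichment passed the test at 0 (limma, with thresholds of 0.05 on the adjusted p and 1 on the size of the log2 fold change), where 0.0855% of the 15199 regions tested did. At an unadjusted p under 0.05 there were 7, and 22% of all regions. Without control replicate 1 the count was 4 (1 higher and 3 lower in RXR-deficient LPMs), where 1.61% of all regions passed as higher and 3.55% as lower, and without control replicate 3 it was 1, where 0.895% of all regions passed. In all, 8 regions had a positive and 5 a negative log2 fold change, with a median of 0.14, where the median over all regions tested was -0.09. Both RXR-deficient libraries were above both controls at 5 regions (22.3% of all regions) and both controls above at 4 (32.9% of all). On the summit pileup 2 regions passed, both higher in RXR-deficient LPMs, where 7.48% of 15196 regions passed in all and 2.49% did so in that direction.

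**Figure D4:**
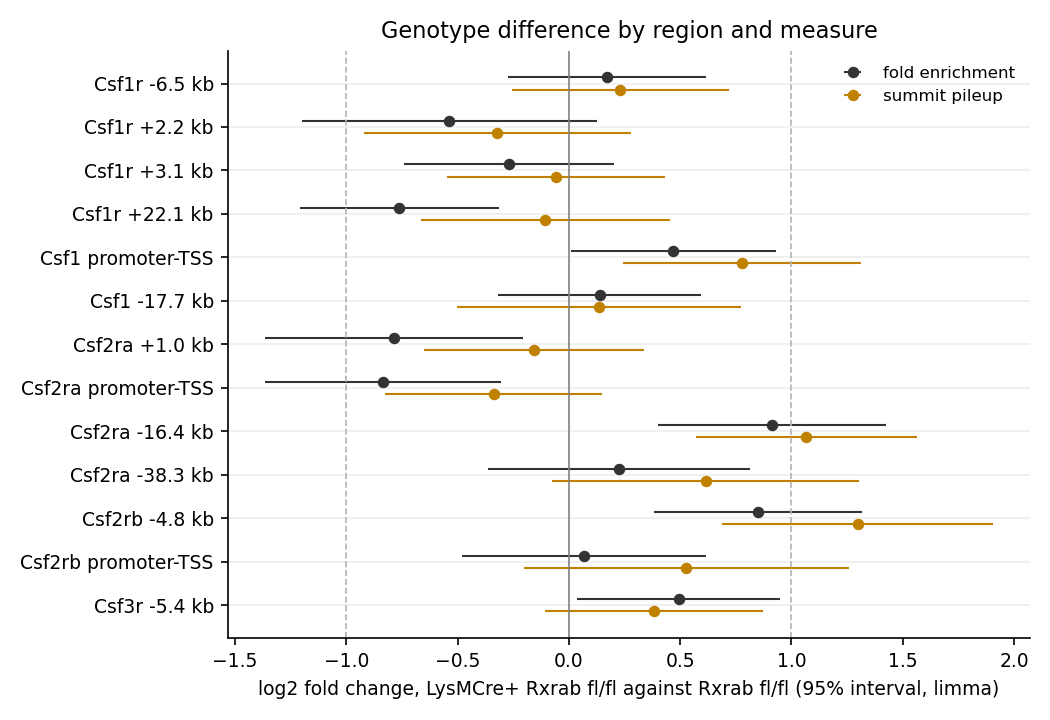
Log2 fold change of RXR-deficient against control LPMs (horizontal axis, positive is higher in RXR-deficient) for the 13 regions, with 95% intervals from limma, on fold enrichment (dark) and summit pileup (ochre), and dashed lines at the size threshold. Csf2ra -16.4 kb (0.91 and 1.07) and Csf2rb -4.8 kb (0.85 and 1.30) lie furthest to the right on both measures.

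Called in both RXR-deficient libraries and in neither control were 7 regions (15.2%, where 22.8% of all regions were), and 0 the other way round (0.0452% of all regions). There were 2 at Csf1r, 2 at Csf1 and 1 each at Csf2rb, Csf3r and Flt3. The one not given above, at Csf1r -18.5 kb, had 3.62 and 3.81. Their median fold enrichments were 9.13 and 7.46, where all regions of this kind had 6.88 and 5.77. When each library was reduced to its 16097 peaks of lowest q value, none of these 7 stayed in this class. Of the 18 regions that were left, 2 were then called only in RXR-deficient LPMs, Csf1r at 15.2 kb and the Csf2rb2 promoter (7.82% of all regions), and 1 only in controls, the Csf2ra promoter (7.22% of all). The class changed with the number of peaks taken from a library.

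The 46 regions were also read for base composition and binding patterns. Their median GC content within 100 bp of the summit was 52.7% (51.7% over all regions). The PU.1 pattern was found in 8 (17.4%, against 21.8% of all regions), C/EBP in 9 (19.6% against 11.1%), AP-1 in 6 (13.0% against 12.7%) and RUNX in 8 (17.4% against 17.1%). The MEIS pattern TGACAG was found in 12 (26.1% against 16.6%), GATA as AGATAA in 2 (4.35% against 6.44%) and KLF as GGGNGTGG in 2 (4.35% against 10.4%). The interferon-stimulated response element (ISRE) was found in 2 (4.35% against 3%), at the Csf1 promoter and at Csf2ra -16.4 kb. DR1 and DR5, the spacings read by RXR homodimers and RXR with retinoic acid receptors, were found in 0, and in 0.164% and 0.151% of all regions.

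The STAT pattern was found in 8 of the 46 (17.4%, Wilson 95% interval 9.09% to 30.7%), and in 5.58% of all regions. Of these 8, 5 lay at the Csf2rb and Csf2rb2 genes, where they made up 5 of 6 regions, and the others at Csf2ra 1.0 kb, Csf3r -33.6 kb and Flt3 34.1 kb. Csf2rb and Csf2rb2 are paralogues, so their regions are not independent cases, and the pattern was picked out after its share was seen.

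**Figure D5:**
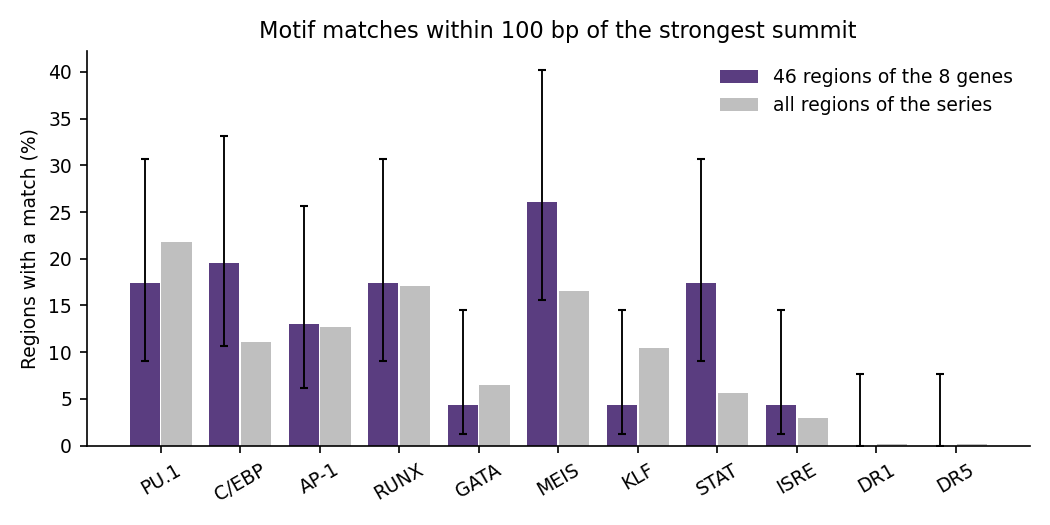
Percentage of regions with a match within 100 bp of the strongest summit (vertical axis) for 11 binding patterns, in the 46 regions (purple, with Wilson 95% intervals for counting error) and in all 70744 regions (grey). STAT stands at 17.4% against 5.58%, and DR1 and DR5 at 0.

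The other genes of these pathways were read in the same way. Of 11 partner receptors and ligands, from Csf2 and Csf3 to Il3ra, Flt3l and Kitl, 10 had a region. Of their 28 regions, 16, 6, 27 and 24 were called, where 52.0%, 21.9%, 90.7% and 77.2% of all regions were. Called only in RXR-deficient LPMs were 7 (25%, where 22.8% of all regions were). On fold enrichment 0 of the 6 regions called in all 4 libraries passed (limma), with 3 at an unadjusted p under 0.05 (22% of all regions), and 0 passed on the pileup, with 2 at an unadjusted p under 0.05 (33.2% of all regions). The 23 signal transducers, among them the kinases Jak1 and Jak2, the STAT genes and the suppressors Socs1 and Socs3, had 252 regions, with 149, 59, 223 and 197 called and 46 (18.3%) called only in RXR-deficient LPMs, below the 22.8% of all regions. On fold enrichment 0 of 58 passed in either direction (limma), with 10 (17.2%) at an unadjusted p under 0.05, where 22% of all regions were. On the summit pileup, where 2.49% of all regions passed as higher and 4.98% as lower, 2 of the transducer regions passed as higher, at Stat5b (log2 fold change 1.06), a STAT that acts downstream of the GM-CSF receptor, and at Akt1 (1.21), a survival kinase. One passed as lower, at Cblb (-1.18), a ubiquitin ligase.

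The genes whose strongest region was most like the Csf1r intron 2 site over the 4 libraries were Rabgef1, Upp2, St8sia4, Slc6a6 and Tor1aip2, with Euclidean distances of 0.05 to 0.10 on the centred log2 scale, among 10100 genes. With 4 libraries such a likeness is a description only.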

How the data were processed

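The authors trimmed adaptors (cutadapt), aligned read pairs to mm10 (Bowtie2), and kept proper pairs of mapping quality over 30 on autosomes without duplicates. Peaks were called by the authors in each library with MACS2 2.1.1 (shift 100, extension 200 bp, q value of 0.05), and those on blacklisted sites were dropped. Per the deposited lists, each peak has a fold enrichment (a ratio to the background around it), a −log10 p-value and q-value, and a summit. The integer score deposited by the authors was not used. Their edgeR test needs read counts, which were not used here.

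From the ratio and the p-value, with the pseudocount of 1 that MACS2 adds, a summit pileup in whole tags and a background were solved for 99.997% to 100% of peaks per library. The lowest background, which stands for depth, was 1.97 and 1.06 tags in the control libraries and 1.33 and 1.08 in the RXR-deficient ones. Peak numbers did not follow it. Regions were placed on 43783 RefSeq NM and NR transcripts of 24963 autosomal genes, and the highest peak of a library in a region was used. The 15199 regions present in all 4 libraries entered limma 3.58.1 (R 4.3.3, lmFit and eBayes) as log2 ratios minus the library median, with genotype as the only term and Benjamini-Hochberg adjustment over all of them. Scripts were tested on simulated data. The members, lists and motifs were chosen with earlier results of these data known. Named genes were the 8 members, pathway genes past the threshold, and the 5 genes nearest to Csf1r in pattern. Full values were given for member regions called in all 4 libraries, at promoters, strongest by mean, or called in both libraries of a single genotype. Means were of log2 fold enrichment over the libraries that called a region. Other measures, scalings, filters, thresholds and windows were tried, and each library was left out.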

Additional observations from a re-analysis of the deposited data

How the results depend on the processing

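No paired analysis was possible because the genotypes share only replicate number 1. The count of the 13 regions past the limma threshold, 0 on fold enrichment, stayed 0 with no centring, quantile normalization, a q value of 0.01, a mean-variance trend and adjusted p alone. With regions called in at least 2 libraries it was 0 of 26, where 13 regions missing from some libraries joined (log2 fold changes of -0.18 to 0.84). It was 2 on the summit pileup and 0 to 4 with each library left out. Over all regions the count was 13 (6 higher and 7 lower in RXR-deficient LPMs), and 1136 on the pileup (379 and 757), 0 with no centring, 11 with quantile normalization (9 and 2), 2887 with regions in at least 2 libraries (2750 and 137), 137 with the trend (61 and 76) and 13 to 784 with each library left out. With no centring the median log2 fold change of all regions moved by 0.37, and with regions in at least 2 libraries by 0.28. In fits chosen after seeing the data, the pileup with each library left out gave 0.98 to 1.16 at Csf2ra -16.4 kb (adjusted p 0.0172 to 0.0759, limma) and 0.97 to 1.63 at Csf2rb -4.8 kb (0.00126 to 0.101). On fold enrichment, the adjusted p fell under 0.05 with log2 fold changes inside 1 for Csf1r 22.1 kb with the trend (0.0432) and regions in at least 2 libraries (0.0405), and for the Csf2ra promoter with the latter (0.0467, limma).

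The sign turned at Csf1r 3.1 kb with no centring (0.10). With each library left out it turned at Csf1r 2.2 kb (-1.12 to 0.0408, positive without control replicate 3), Csf2ra -38.3 kb (-0.23 to 0.69, negative without control replicate 1), Csf1 -17.7 kb (-0.00315 to 0.28, negative without RXR-deficient replicate 1) and the Csf2rb promoter (-0.29 to 0.43, negative at -0.08 without control replicate 3 and at -0.29 without RXR-deficient replicate 2). The causes were not tested. Of 138 recomputed log2 fold changes, 122 kept their direction and side of the threshold and 10 passed it.

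Regions called in both RXR-deficient libraries only were 2 of 18 with equal peak numbers (7.82% of all regions). Without control replicate 1 there were 18 of 46, where 34197 of all 70744 regions were in this class. There were 7 without control replicate 3 (16158 of all), 14 without RXR-deficient replicate 1 (20857) and 13 without RXR-deficient replicate 2 (29070). Regions called in both controls only were 1 of 18 with equal numbers (7.22% of all regions). With equal numbers 10 and 13 of the 18 regions were called in the control libraries and 13 and 13 in the RXR-deficient ones. Of all 22300 regions, 15926 and 15503 were called in the controls and 16026 and 16063 in the RXR-deficient libraries. For motifs, windows of 50 bp gave AP-1 4.35%, RUNX 8.7%, MEIS 10.9% and ISRE 0%. Of all regions, 8.13%, 9.21%, 8.75% and 1.63% held these patterns. Windows of 200 bp gave AP-1 28.3% and RUNX 39.1%, against 17.6% and 28.2% of all regions. STAT stood at 13.0% with windows of 50 bp, against 2.76% of all regions. With 200 bp STAT was 19.6%, against 11.6% of all regions, a share inside the Wilson interval of 10.7% to 33.2%. With 2 libraries per genotype, the smallest two-sided exact permutation p is 0.333, so the calls of single regions were not tested.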
